A study of Homo sapiens with 6 samples.

Results

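The expression of 10 genes was examined, namely the CXC chemokine genes CXCL8, CXCL1, CXCL2, CXCL3, CXCL5 and CXCL16 and the NF-kB feedback genes NFKBIA, TNFAIP3, RELB and BIRC3. The set was chosen by measured values, in that CXCL8 was known to be much higher in the siLINC01534 libraries than in parent, and the question was whether other NF-kB target genes moved with it. All 10 were found by symbol among the 26255 genes listed for each library. The data are RNA-seq libraries of HCT116 cells, an epithelial line from a human colorectal carcinoma, with 2 libraries of parent cells, 2 of cells given siLINC01534-1 and 2 of cells given siLINC01534-2. These are 2 small interfering RNAs against different places in LINC01534, a long noncoding RNA, and the study used them to ask what changes in the cells when LINC01534 is silenced. Nothing in the labels says that the parent cells were transfected, and no library was labelled as cells given a negative control siRNA. Transfection and loss of LINC01534 therefore cannot be told apart as sources of a difference from parent. No other treatment or dose was labelled, and both siRNA groups were compared with the same 2 parent libraries.

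NF-kB is a family of transcription factors that inhibitor proteins of the IkB family hold in the cytoplasm until signals from cytokine receptors, pattern receptors or cell stress lead to the breakdown of the inhibitor. The freed factors enter the nucleus, bind short kB elements in promoters and switch on chemokine genes together with genes that limit the signal. In colonic epithelial and tumor cells, the chemokines made in this way draw neutrophils and other leukocytes and act on vessels, and transcripts of several of them are short-lived because of AU-rich elements in their tails.

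The promoter of CXCL8 is printed whole because a kB element and an AP-1 element stand close together in it, and windows of 60 bases are shown for the other genes with a promoter row to let their kB elements be compared. The sequences are from RefSeq on GRCh38.p14, 5′ to 3′ on the strand of the gene, and 8 of the 10 genes matched, with RELB and CXCL16 not shown. The CXCL8 window is chr4:73740319-73740618 (plus strand), from 250 bases before the start of the gene to 50 bases of it. The other windows are chr4:73869290-73869349 (plus) for CXCL1, chr4:74099238-74099297 (minus) for CXCL2, chr4:74038733-74038792 (minus) for CXCL3, chr4:73998733-73998792 (minus) for CXCL5, chr14:35404796-35404855 (minus) for NFKBIA, chr6:137867179-137867238 (plus) for TNFAIP3 and chr11:102317324-102317383 (plus) for BIRC3. Capitals mark the matches to a kB motif and, in CXCL8 alone, the match to AP-1.
CXCL8: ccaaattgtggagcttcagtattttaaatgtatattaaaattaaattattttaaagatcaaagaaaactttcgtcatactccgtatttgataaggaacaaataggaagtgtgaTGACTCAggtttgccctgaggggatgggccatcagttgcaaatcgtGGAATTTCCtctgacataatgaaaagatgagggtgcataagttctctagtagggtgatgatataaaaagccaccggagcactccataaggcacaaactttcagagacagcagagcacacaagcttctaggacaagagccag
CXCL1: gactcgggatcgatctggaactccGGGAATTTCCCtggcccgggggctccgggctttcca
CXCL2: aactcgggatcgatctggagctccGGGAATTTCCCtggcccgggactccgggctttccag
CXCL3: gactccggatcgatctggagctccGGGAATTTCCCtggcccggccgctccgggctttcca
CXCL5: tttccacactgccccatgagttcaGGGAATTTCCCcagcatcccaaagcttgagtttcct
NFKBIA: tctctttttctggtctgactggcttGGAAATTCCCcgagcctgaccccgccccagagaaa
TNFAIP3: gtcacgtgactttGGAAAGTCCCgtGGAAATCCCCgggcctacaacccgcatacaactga
BIRC3: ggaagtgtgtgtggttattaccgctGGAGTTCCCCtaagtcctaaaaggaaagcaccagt

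Both strands were searched for the 9-letter kB core GGAATTTCC, for the longer and looser kB consensus, whose matches can overlap those of the core, and for the AP-1 motif TGANTCA. Each of the 8 promoter windows held a kB match, compared with 6.123% of the 35116 RefSeq promoter windows of the same length and 9.08% of the 9009 tested genes with a window. The members were named as NF-kB targets, so these matches describe them and support nothing further. The core was present in CXCL8, CXCL1, CXCL2, CXCL3, CXCL5 and NFKBIA and in 0.461% of all windows. In CXCL8 it ran from -91 to -83 from the start, with AP-1 from -137 to -131, where the motif with its open base N is matched on both strands. In CXCL1 and CXCL3 the core ran from -78 to -70 and in CXCL2 from -77 to -69. NFKBIA carried it on the opposite strand from -81 to -73. TNFAIP3 held 2 matches to the consensus alone, within the stretch from -67 to -46, and BIRC3 held 2 that lay farther up, from -199 to -190 and from -135 to -126. An AP-1 match was present in 7.709% of all windows and, of the 8 shown, in CXCL8 alone.

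**Figure D1:**
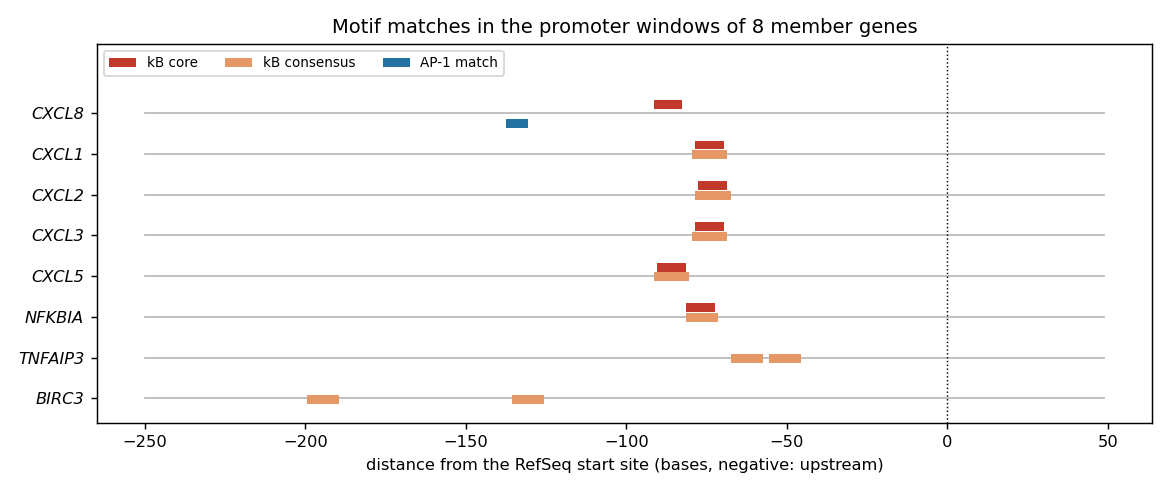
Motif matches in the promoter windows of 8 genes, plotted as distance in bases from the RefSeq start site (dotted line), with boxes for the kB core, the kB consensus and AP-1. The core lies between -91 and -69 in all 6 genes that hold it, whether or not the gene was detected as RNA.

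On the GRCh37 assembly (hg19), to which the reads were mapped, 5 of the chemokine genes lie in 1 cluster on chromosome 4, with CXCL8 at 74606236 to 74609433 and CXCL1 at 74735110 to 74737025 on the plus strand, and CXCL5 at 74861359 to 74864394, CXCL3 at 74902306 to 74904524 and CXCL2 at 74962757 to 74964913 on the minus strand. CXCL16 lies apart, on chromosome 17 from 4636828 to 4643223 (minus strand). NFKBIA is on chromosome 14 from 35870285 to 35873955 (minus), TNFAIP3 on chromosome 6 from 138188351 to 138204451 (plus), RELB on chromosome 19 from 45504719 to 45541450 (plus) and BIRC3 on chromosome 11 from 102188215 to 102210134 (plus). The coding sequences of CXCL1 and CXCL2 were identical at 93.52% of aligned positions, those of CXCL2 and CXCL3 at 94.44% and those of CXCL1 and CXCL3 at 90.74%, whereas CXCL8 shared between 49.58% and 53.06% with CXCL1, CXCL2, CXCL3 and CXCL5. Reads of 75 bases could still be placed for the most part. The share of 75-base windows of the transcript that also occurs in another gene was 0.27% for CXCL1, 2.5% for CXCL2 and 2.3% for CXCL3, and 0 such windows were found in CXCL8, NFKBIA, TNFAIP3 and RELB. It was 1.07% for CXCL16, 0.76% for BIRC3 and 8.64% for CXCL5.

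The values are FPKM, fragment numbers scaled by transcript length and library size, so that levels can be compared between genes. The files hold no read counts, and the steps between low values put the depth at roughly 8710000 to 10390000 reads per library. LINC01534 had an FPKM of 0.285 and 0.571 in parent, 0 and 0.283 in the libraries labelled siLINC01534-1, and 0.660 and 0.551 in those labelled siLINC01534-2. Its mean with siLINC01534-2 was 0.606 FPKM, against 0.428 in parent. At under 1 FPKM in all 6 libraries, these values are too low to show whether LINC01534 was silenced. By qRT-PCR, the paper reports that both siRNAs reduced LINC01534 relative to a negative control siRNA. The groups are named by their labels throughout. The summed FPKM of 7 epithelial marker genes was 3458 to 3522 in parent, 2927 to 2932 with siLINC01534-1 and 3335 to 3521 with siLINC01534-2. That of 5 leukocyte markers was 0.855 to 0.885, 1.47 to 1.70 and 1.51 to 2.00 in the same order, with CD3E listed at 0 in all 6 libraries. That of 5 fibroblast markers was 3.11 to 3.18, 5.40 to 6.08 and 3.85 to 4.33, and that of 3 endothelial markers did not exceed 0.110. These low sums were higher in the siLINC01534 libraries for leukocyte and fibroblast markers, but each rested mostly on 1 gene. COL1A1 (3.02 and 3.05 FPKM in parent) made up most of the fibroblast sum, and LYZ (0.755 and 0.606) most of the leukocyte sum. The epithelial sum rested mostly on KRT8, KRT18 and KRT19, and VIL1, also part of it, did not exceed 0.0453 FPKM. COL1A1, LYZ and CD14 lay above parent in all 4 siLINC01534 libraries. The other leukocyte and fibroblast markers overlapped parent or were at 0. The part of these sums in the results was not tested. The labels give 2 libraries per group and the methods 3 cultures, and where nothing ties a library to its own culture, p-values measure only the spread between these libraries.

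CXCL8 encodes interleukin-8, a chemokine that attracts neutrophils through the receptors CXCR1 and CXCR2. Expression stood at 1.12 and 1.39 FPKM in parent, against 17.2 and 17.1 for siLINC01534-1 and 18.9 and 21.9 for siLINC01534-2. All 4 siLINC01534 libraries lay far above both parent libraries. The means were 1.26 ± 0.189 (SD, n = 2), 17.1 ± 0.0294 (SD, n = 2) and 20.4 ± 2.12 (SD, n = 2), a ratio to parent of 13.7 with siLINC01534-1 and 16.2 with siLINC01534-2. On the scale of log2(FPKM + 1) the difference from parent was 3.13 (SE 0.0808) for the mean of both siRNAs, 3.01 with siLINC01534-1 and 3.25 with siLINC01534-2. These values led to the choice of the set and are given without a test. They correspond to an estimated 16 and 20 reads in parent and 220 to 328 in the siLINC01534 libraries. In a bulk sample, a larger number of cells with the transcript and more transcript per cell cannot be told apart.

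CXCL1, CXCL2 and CXCL3 encode closely related chemokines that act on neutrophils through CXCR2. CXCL3 had an FPKM of 0.418 and 0.524 in parent, against 5.70 and 3.64 for siLINC01534-1 and 3.88 and 3.94 for siLINC01534-2. The siLINC01534 libraries did not overlap parent, and the spread was widest between the 2 libraries of siLINC01534-1. The ratio of means to parent was 9.91 for siLINC01534-1 and 8.30 for siLINC01534-2, and the difference of both siRNAs from parent was 1.83 (SE 0.158) on the log2(FPKM + 1) scale, which understates the change of genes this low. CXCL1 was at 1.03 and 0.618 FPKM in parent, against 1.87 and 1.43 for siLINC01534-1 and 2.62 and 2.98 for siLINC01534-2. Its libraries fell in 3 separate ranges, with siLINC01534-1 in the middle. The ratio of means was 2.00 for siLINC01534-1 and 3.41 for siLINC01534-2, and the log2 difference of both siRNAs from parent was 0.81 (SE 0.139). CXCL2 was at 0.496 and 0.0995 FPKM in parent, against 1.13 and 1.18 for siLINC01534-1 and 1.61 and 1.44 for siLINC01534-2. It too was higher in all 4 siLINC01534 libraries, but its parent values rest on an estimated 5 and 1 reads. With a mean of 0.993 FPKM over the 6 libraries it fell just under the minimum of 1 for testing, and without that minimum its difference from parent was 0.86 (SE 0.137).

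CXCL5, another CXCR2 ligand in the same cluster, was listed at 0 in all 6 libraries. Its promoter window is among those with the kB core. CXCL16 encodes a membrane-bound chemokine and scavenger receptor whose soluble form attracts T cells through CXCR6. It was the most abundant member in parent, with an FPKM of 33.8 and 34.3, against 48.1 and 43.0 for siLINC01534-1 and 41.6 and 40.1 for siLINC01534-2. All 4 siLINC01534 libraries were above parent, by the smallest ratio among the 9 detected members, 1.34 and 1.20 for the 2 siRNAs. The log2 difference of both siRNAs from parent was 0.33 (SE 0.0521), and it missed the threshold when either parent library was left out. Alone among the chemokine genes, CXCL16 was well expressed in parent cells.

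**Figure D2:**
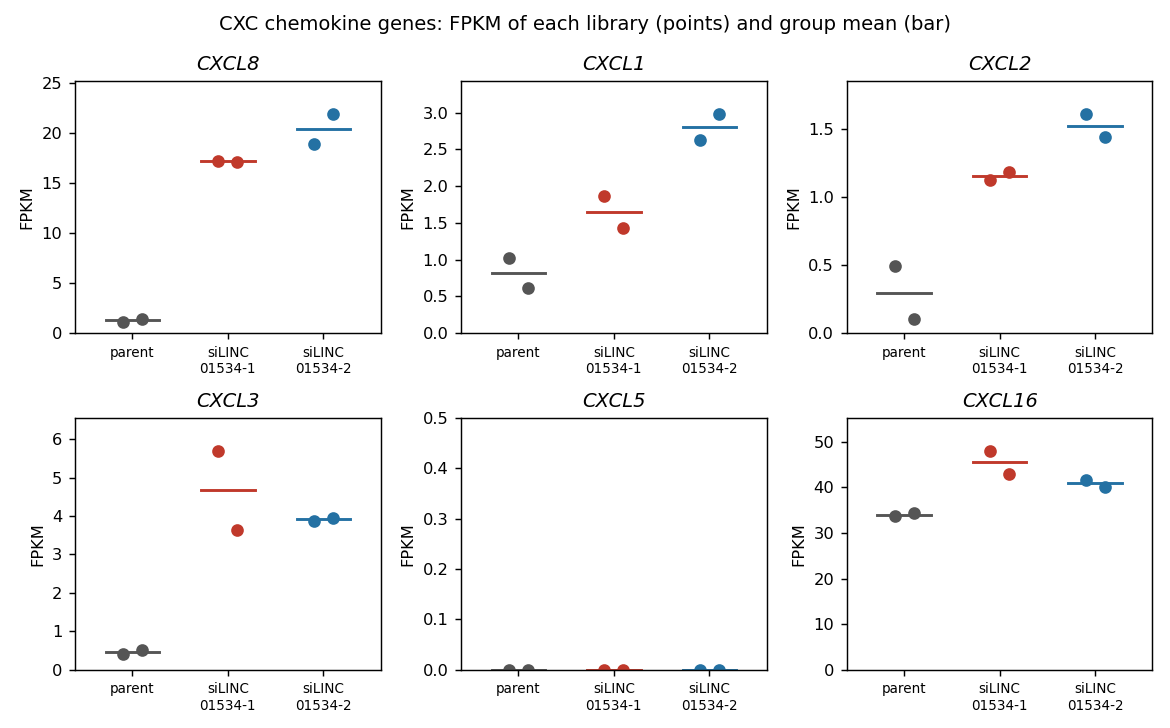
FPKM of the 6 CXC chemokine genes in each library (points) with the mean of each group (bar), each panel on its own axis from 0. CXCL8 goes from 1.12 and 1.39 in parent to between 17.1 and 21.9 in the 4 siLINC01534 libraries, CXCL16 starts from 33.8 and 34.3 and changes least in ratio, and CXCL5 is listed at 0 in all 6.

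The 11 other CXC chemokine genes that were looked up were nearly silent. None reached a mean FPKM of 1, 6 were listed at 0 in all libraries and the highest single value was 0.152. Receptors were scarce as well, with 8 genes examined, 0 tested and a highest value of 0.652. CXCR1 did not exceed 0.0493 FPKM and CXCR2 did not exceed 0.0402, so the receptors for CXCL8 were at or near 0 in these cells in every group. The proteases that release CXCL16 from the membrane were both expressed. ADAM17 had an FPKM of 16.3 and 15.8 in parent, against 29.8 and 29.3 for siLINC01534-1 and 26.1 and 26.3 for siLINC01534-2. ADAM17 rose by 0.76 for both siRNAs (SE 0.0348, limma adjusted p = 0.000205), whereas ADAM10 had a difference of 0.076 (SE 0.0547, adjusted p = 0.326).

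The feedback genes were higher in the siLINC01534 libraries too. NFKBIA encodes IkB-alpha, the inhibitor that NF-kB itself induces and that takes NF-kB back out of the nucleus. NFKBIA had an FPKM of 22.7 and 24.999 in parent, against 47.7 and 44.6 for siLINC01534-1 and 45.3 and 44.6 for siLINC01534-2. Its level was alike in the 4 siLINC01534 libraries and near 1.91 times that in parent, a log2 difference of 0.91 (SE 0.0524) with 308 to 630 estimated reads per library. TNFAIP3 encodes A20, a ubiquitin-editing enzyme that shuts off signalling from receptors to NF-kB. It was at 1.18 and 1.06 FPKM in parent, against 2.26 and 2.21 for siLINC01534-1 and 2.97 and 3.47 for siLINC01534-2. As with CXCL1, the 3 groups did not overlap and siLINC01534-1 lay in the middle. The ratio of means to parent was 1.99 for siLINC01534-1 and 2.87 for siLINC01534-2, and the log2 difference of both siRNAs was 0.80 (SE 0.0906).

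RELB encodes the NF-kB subunit that pairs with p52 in the alternative branch of the pathway, and its own gene is a target of NF-kB. RELB had an FPKM of 5.16 and 4.89 in parent, against 15.96 and 15.7 for siLINC01534-1 and 17.1 and 19.5 for siLINC01534-2. The ratio of means to parent was 3.15 and 3.64 for the 2 siRNAs, and the log2 difference of both was 1.58 (SE 0.0630). BIRC3 encodes cIAP2, a ubiquitin ligase of the TNF receptor complex that restrains the alternative branch. BIRC3 was at 0.619 and 0.789 FPKM in parent, against 3.57 and 3.73 for siLINC01534-1 and 3.67 and 4.19 for siLINC01534-2. Both genes were higher in all 4 siLINC01534 libraries than in either parent library. For BIRC3 the ratio of means was 5.18 and 5.59, and the log2 difference of both siRNAs was 1.49 (SE 0.0905).

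**Figure D3:**
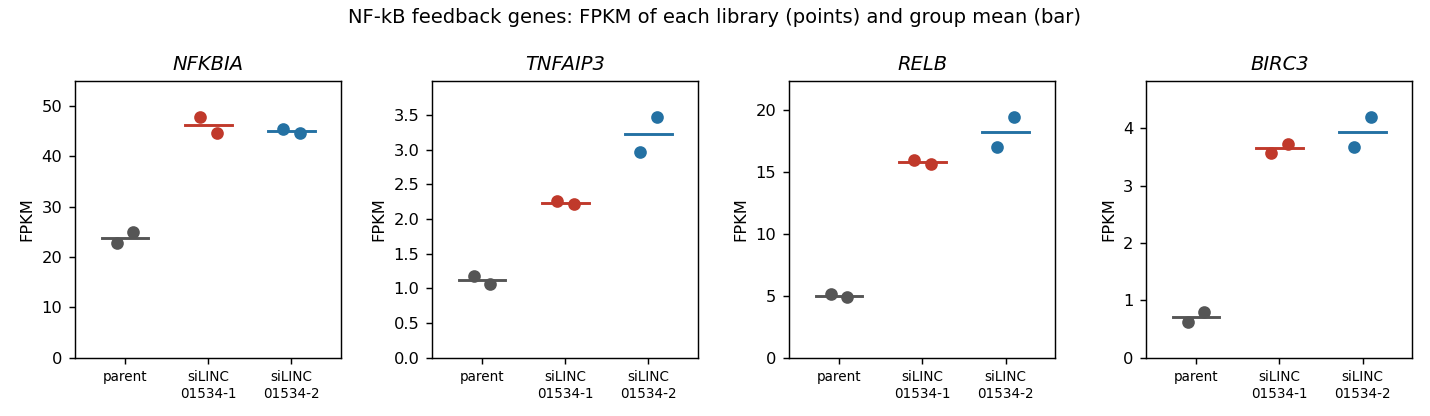
FPKM of NFKBIA, TNFAIP3, RELB and BIRC3 in each library (points) with the mean of each group (bar), each panel on its own axis from 0. Parent lies below all 4 siLINC01534 libraries in each panel, and for TNFAIP3 the libraries of siLINC01534-1 (2.26 and 2.21) lie below those of siLINC01534-2 (2.97 and 3.47).

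Of the 10 members, 8 had a mean FPKM of at least 1 and entered the fit with 12203 genes. CXCL1, CXCL3 and BIRC3 had a parent mean under 1 and passed that minimum only through the siLINC01534 groups, so the count of members past the threshold carries no weight of its own. All 8 were past an adjusted p of 0.05 and higher with both siRNAs together, where 17.1% of all tested genes were higher and 20.1% lower. They were also past it and higher with each siRNA alone. Among all tested genes 21.8% were higher and 24.5% lower with siLINC01534-1, and 11.1% were higher and 11.8% lower with siLINC01534-2. The members' median log2 difference was 1.20, 1.19 and 1.3 for both siRNAs, siLINC01534-1 and siLINC01534-2, against -0.0068, 0.00031 and 0.0018 over all tested genes. These contrasts chose the set, and nothing is read from the counts. CXCL8 stood first, CXCL3 next and CXCL16 last both by the log2 difference and by the ratio of means. The order of the others depended on the scale, since adding 1 to each FPKM compresses low genes: by ratio BIRC3 (5.39) lay above RELB (3.39), and CXCL1 (2.71) and TNFAIP3 (2.43) above NFKBIA (1.91), whereas by the log2 difference RELB and NFKBIA came first.

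The order of the levels changed between the groups. In parent, CXCL16 led, followed by NFKBIA and RELB. CXCL8 and TNFAIP3 came next with overlapping libraries, then CXCL1 and BIRC3, which overlapped, and CXCL3 and CXCL2, which also overlapped. With siLINC01534-1, NFKBIA and CXCL16 overlapped at the top, and CXCL8 came next, above RELB. With siLINC01534-2, NFKBIA was above CXCL16, CXCL8 and RELB overlapped, CXCL3 and BIRC3 overlapped, and TNFAIP3 overlapped with CXCL1. CXCL8 thus moved from a level close to that of TNFAIP3 to one close to that of RELB.

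The difference between the 2 siRNAs was not used to choose the set and was tested. CXCL1 was lower with siLINC01534-1 than with siLINC01534-2 by a log2 difference of -0.52 (SE 0.160, 95% interval -0.924 to -0.124, limma adjusted p = 0.0466). That difference rests on few reads, an estimated 16 and 14 with siLINC01534-1 and 22 and 30 with siLINC01534-2. TNFAIP3 was also lower with siLINC01534-1, with a log2 difference of -0.38 (SE 0.105, interval -0.642 to -0.120, adjusted p = 0.034). So 2 of 8 members differed between the siRNAs, while 41.8% of all tested genes did, and neither call held in every alternative: over those tried, the adjusted p ranged from 0.038 to 0.165 for CXCL1 and from 0.0153 to 0.108 for TNFAIP3. CXCL1 missed the threshold when any 1 of the 4 siLINC01534 libraries was left out, and TNFAIP3 when any but the first library of siLINC01534-2 was.

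For CXCL8 the difference between the siRNAs was -0.23 (SE 0.0933, interval -0.467 to -0.000881, adjusted p = 0.0965), which did not pass the threshold. RELB was at -0.19 (interval -0.374 to -0.0109, adjusted p = 0.0838) and passed at 0.0449 without the first library of siLINC01534-2. CXCL16 was at 0.15 (interval 0.000868 to 0.301, adjusted p = 0.096) and passed at 0.0364 without the second library of siLINC01534-1. For these 3 genes the unadjusted intervals lay to 1 side of 0, and the test across all genes did not separate the siRNAs. The intervals of NFKBIA (-0.115 to 0.187, difference 0.036, adjusted p = 0.665) and BIRC3 (-0.345 to 0.176, difference -0.085, adjusted p = 0.547) were short beside their differences from parent. CXCL3 had the widest interval, -0.271 to 0.637 around 0.18 (adjusted p = 0.455). Without the first library of siLINC01534-1 its difference was -0.082, and without the second it was 0.45 with an adjusted p of 0.043, so its sign rests on a single library. CXCL2, taken without the minimum, differed by -0.23 (SE 0.159, adjusted p = 0.378).

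**Figure D4:**
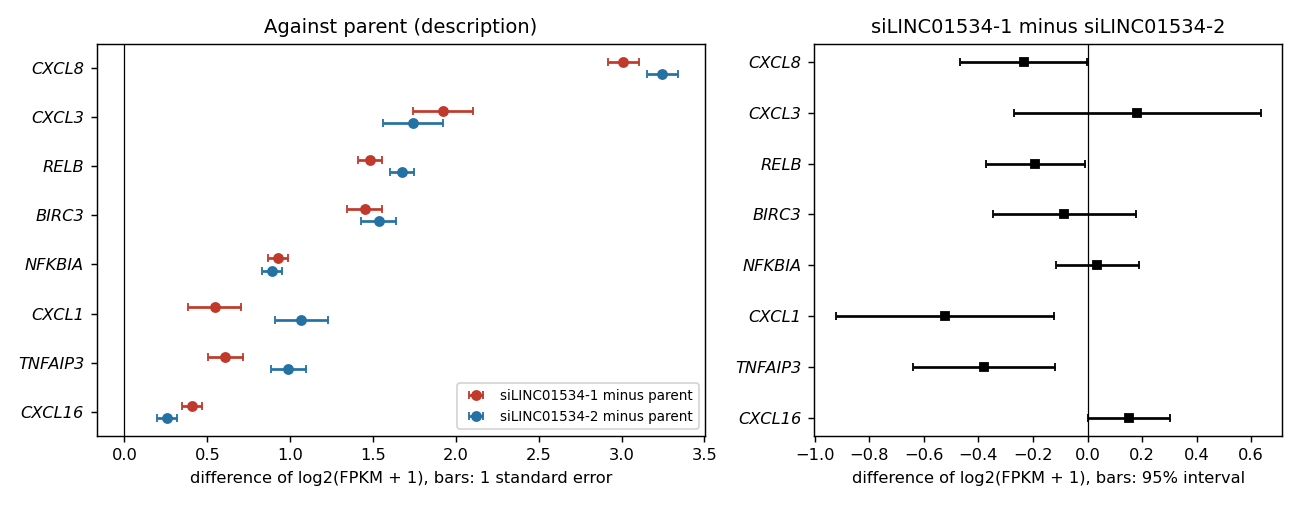
Differences of log2(FPKM + 1) for the 8 tested members, ordered by size. The left panel shows each siRNA minus parent with 1 standard error, where CXCL8 is at 3.01 and 3.25, and the right panel shows siLINC01534-1 minus siLINC01534-2 with its 95% interval, where CXCL1 (-0.52) and TNFAIP3 (-0.38) passed the test across all genes.

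Other NF-kB target genes were then looked up. Their list, like the other gene lists, was drawn up with earlier results of these data known, so its counts are not independent. Of 44 genes known as targets in various cell types, 20 were expressed highly enough to be tested. For the mean of both siRNAs 11 rose and 2 fell, a share of 55.0% higher against the 17.1% of all tested genes. The median log2 difference was 0.269. CSF1, 1 of the 11, had a parent mean of 0.774 FPKM and reached the minimum only through the siLINC01534 libraries, so the counts carry that limit. The differences that follow are of log2(FPKM + 1) for the mean of both siRNAs minus parent. With siLINC01534-1 alone 7 rose and 1 fell, and with siLINC01534-2 alone 8 rose and 2 fell. Of the 11, NUAK2, FTH1, PLAU, SDC4 and TAP1 passed with each siRNA. IER3, TNFAIP2 and IRF1 passed with siLINC01534-2 but not with siLINC01534-1, and the first 2 of these overlapped parent. CSF1 passed with siLINC01534-1 only, and LIF with neither. The largest rise was in NUAK2, which encodes a stress-induced kinase, from 2.14 and 2.21 FPKM in parent to between 5.53 and 6.81 (log2 difference 1.14, SE 0.0807, limma adjusted p = 0.000622). FTH1, which encodes the heavy chain of ferritin, rose by 0.70 (adjusted p = 0.000244). PLAU, the urokinase-type plasminogen activator, rose by 0.66 (adjusted p = 0.000617). LCN2, the siderophore-binding lipocalin, was at 0.67 (adjusted p = 0.0361), but it passed with neither siRNA alone (adjusted p = 0.0544 and 0.0651) and missed the threshold when any library except the first of siLINC01534-2 was left out. SOD2, the mitochondrial superoxide dismutase and a standard target of NF-kB, went the other way, from 82.3 and 84.0 FPKM in parent to between 67.1 and 76.2, and fell by 0.21 on the log2 scale (adjusted p = 0.00499). With all siLINC01534 libraries pooled into 1 group, 3 of the 13 calls remained (FTH1, NUAK2 and SDC4), and without the second parent library 8 genes passed. The calls over all tested genes went from 4541 to 361 and 2219 in the same settings.

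The 24 targets that were not tested include the classical inflammatory cytokines. IL6 was listed at 0 in all libraries, as were VCAM1, SELE, IL1B, LTB, CSF3 and SAA1, and TNF did not exceed 0.077 FPKM. CCL20, a chemokine for CCR6-bearing cells, was at 0.312 and 0.157 in parent, against 0.711 and 1.09 for siLINC01534-1 and 1.09 and 1.206 for siLINC01534-2. ICAM1, an adhesion molecule, was at 0.293 and 0.456 in parent, against 0.185 and 0.129 for siLINC01534-1 and 0.377 and 0.409 for siLINC01534-2. CCL20 thus lay above parent in all 4 siLINC01534 libraries, as CXCL8, CXCL1, CXCL2, CXCL3 and CXCL16 did, while ICAM1 did not. TRAF1, TNFRSF9, IL32 and PTGS2 also lay above parent in all 4, at low FPKM, and the other untested targets overlapped parent or were at 0. The share of all genes with this separation was not counted.

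Among the 9 NF-kB and IkB proteins other than RELB and IkB-alpha, 4 rose (44.4%) and 1 fell (11.1%), with a median of 0.143. Of all tested genes, 17.1% rose and 20.1% fell. NFKB2, the gene of p52 and thus of the partner of RelB, had an FPKM of 28.7 and 29.6 in parent, against 71.3 and 67.0 for siLINC01534-1 and 52.6 and 52.9 for siLINC01534-2. NFKB2 rose by 1.03 (SE 0.0375, limma adjusted p = 0.000117) and was the farthest moved of the list. BCL3, a nuclear IkB protein that works with p50 and p52, rose by 0.78 (adjusted p = 0.0018). RELA, the p65 subunit, rose by 0.32 (adjusted p = 0.00159). NFKB1, the gene of p50, differed by 0.23 (adjusted p = 0.045), with libraries that overlapped parent and a difference of 0.094 for siLINC01534-2 alone (adjusted p = 0.417), and REL differed by 0.063 (adjusted p = 0.612). NFKBID, another nuclear IkB protein, fell by 0.32 (adjusted p = 0.0126).

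The enzymes and adaptors that carry the signal showed no common direction and were called about as often as all tested genes. Of 29 tested genes 6 rose (20.7%) and 5 fell (17.2%), against 17.1% and 20.1% of all tested genes, with a median of 0.0050. MAP3K8, which did not pass, had a parent mean of 0.882 FPKM and was tested only through the siLINC01534 libraries. MAP3K14, which encodes the kinase NIK of the alternative branch, rose by 0.69 (limma adjusted p = 0.00222), RBCK1, a part of the linear ubiquitin ligase complex, by 0.72 (adjusted p = 0.00234), and BIRC2, the gene of cIAP1, a ubiquitin ligase related to cIAP2, by 0.60 (adjusted p = 0.00362). UBE2N, a ubiquitin-conjugating enzyme, fell by 0.58 (adjusted p = 0.000414), a mean of -1.07 for siLINC01534-1 and -0.092 for siLINC01534-2, the latter not past the threshold (adjusted p = 0.159). IKBKB, which encodes the IKK-beta kinase, differed by 0.25 (adjusted p = 0.0236), with 11.04 and 11.6 FPKM with siLINC01534-1 but 7.02 and 7.83 with siLINC01534-2, the latter overlapping the 7.44 and 7.69 in parent. Of 11 brakes other than A20 and IkB-alpha, 4 rose (36.4%, against 17.1% of all tested genes) and 7 did not pass the test (median 0.132). These 4 were CYLD (0.73, adjusted p = 0.00237), a deubiquitinase, the A20 partners TNIP1 (0.59, adjusted p = 0.00124) and TAX1BP1 (0.35, adjusted p = 0.00235), and RNF11 (0.31, adjusted p = 0.0083). Of 17 receptors upstream of NF-kB, 9 were tested, and 4 rose (44.4%, against 17.1% of all tested genes, median 0.291). IL1RAP, which did not pass for the mean of both siRNAs, had a parent mean of 0.807 FPKM and was tested only through the siLINC01534-1 libraries. With siLINC01534-1 alone IL1RAP passed (0.64, adjusted p = 0.0181). Among the 4 were TNFRSF1A (0.37, adjusted p = 0.00578), the main receptor for TNF, and LTBR (0.29, adjusted p = 0.00476), the lymphotoxin beta receptor. TNFRSF12A (0.24, adjusted p = 0.0176), the receptor for TWEAK, rose too but did not pass with siLINC01534-2 alone (adjusted p = 0.0595). The last of the 4, TLR6 (0.65, adjusted p = 0.00625), had libraries that overlapped parent. It rose with siLINC01534-1 (1.25) but did not pass with siLINC01534-2 (0.061, adjusted p = 0.741).

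**Figure D5:**
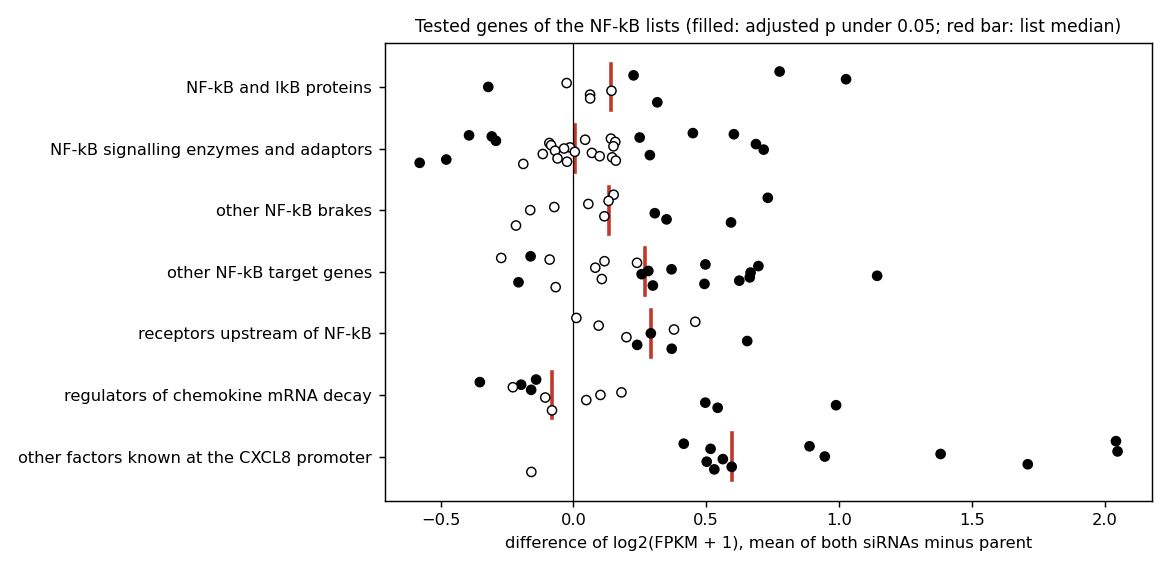
Difference of log2(FPKM + 1), mean of both siRNAs minus parent, for each tested gene of 7 lists, filled where the limma adjusted p was under 0.05, with the median of each list as a red bar. The factors known at the CXCL8 promoter have a median of 0.596 and the signalling enzymes and adaptors one of 0.0050.

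The promoter of CXCL8 is also known to bind AP-1, C/EBP, ATF and octamer proteins. Of 13 genes for such factors, 12 were higher for the mean of both siRNAs (92.3%, against 17.1% of all tested genes). The other, POU2F1, the octamer factor, did not pass the test, and the median was 0.596. FOSB, 1 of the 12, had a parent mean of 0.903 FPKM and was tested only because of its level in the siLINC01534 libraries. The high level of ATF4 and DDIT3 was known when the list was drawn up, so the count is not independent. JUN, an AP-1 subunit, had an FPKM of 8.18 and 7.92 in parent, against 28.5 and 29.5 for siLINC01534-1 and 27.2 and 29.3 for siLINC01534-2 (log2 difference 1.71, SE 0.0462, limma adjusted p = 5.35e-05). Its partner FOS was higher by 1.38 (adjusted p = 0.000205), and ATF3, a stress-induced factor, by 2.04 (adjusted p = 8.42e-05). DDIT3, which encodes CHOP, was higher by 2.05. Like CXCL8, JUN, FOS and ATF3 were in all 4 siLINC01534 libraries above both parent libraries. The share of all tested genes with this separation was not counted.

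The 3′ UTRs were searched for TATTTAT, a heptamer of AU-rich elements. CXCL2 held 8 copies, CXCL8 and CXCL1 held 4 each, CXCL3, CXCL5 and BIRC3 held 3, NFKBIA and TNFAIP3 held 2, and CXCL16 and RELB held 0. At least 1 copy was found in 35.75% of 10482 tested genes with an annotated 3′ UTR and at least 3 in 6.84%. Of 13 regulators of chemokine mRNA decay, 3 rose (23.1%) and 4 fell (30.8%), against 17.1% and 20.1% of all tested genes (median -0.081). ZFP36, which encodes tristetraprolin, a protein that binds AU-rich elements and speeds decay, rose by 0.99 (limma adjusted p = 0.000138). ZFP36L1, of the same family, rose by 0.54 (adjusted p = 0.000552), as did ZC3H12A, the endonuclease Regnase-1, by 0.50 (adjusted p = 0.00601). HNRNPD, which encodes AUF1, fell by 0.35 (adjusted p = 0.00182), with -0.59 for siLINC01534-1 and -0.12 for siLINC01534-2, where it was not past the threshold (adjusted p = 0.108).

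The genes whose pattern was nearest to that of CXCL8 were sought by the Euclidean distance over the 6 libraries between log2(FPKM + 1) values, after the mean of the parent libraries was taken off. The nearest 5 outside the set were HMOX1 (distance 1.47), SNORA53 (1.61), LURAP1L (1.68), UPP1 (1.86) and MIR3648-2 (2.09). HMOX1, the gene of heme oxygenase-1, went from 19.7 and 21.0 FPKM in parent to between 92.7 and 156.8. SNORA53 and MIR3648-2 are short RNA genes listed at 0 in parent, where 1 read can be worth a large FPKM. These 2 and LURAP1L (parent mean 0.777 FPKM) reached the minimum for testing only through the siLINC01534 libraries. Among the members, CXCL3 ranked 9 in this order, RELB 14 and BIRC3 21, while NFKBIA ranked 112, TNFAIP3 145, CXCL1 146 and CXCL16 1106 of the 12203 genes. The distance depends largely on the size of the difference from parent, which chose the set. The ranks therefore describe the members and support nothing further.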

How the data were processed

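Total RNA of HCT116 cells was sequenced as stranded poly(A) libraries with 75-base reads. The labels and the paper's methods name different RNA extraction kits. The authors mapped the reads to hg19 and deposited 1 FPKM value per gene symbol and library, made with Cuffnorm. The submitters' processing notes name TopHat2 2.0.13, Bowtie2 2.2.3, SAMtools 0.1.19 and Cufflinks 2.2.1. The gene annotation is not given in the sources used here. A marker gene is not reported here. No library was left out, and 0 further columns of sample values were set aside.

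From these values log2(FPKM + 1) was computed. Those genes whose FPKM averaged 1 or more were fitted with limma 3.58.1 in R 4.3.3 (1 mean per group, empirical Bayes with a trend, two-sided, Benjamini-Hochberg adjustment over 12203 genes, threshold 0.05), after a run on simulated data. Ratios are of mean FPKM without a pseudocount. The 10 members and the 10 gene lists, which hold 158 genes besides the members, were chosen with earlier results of these data known. Named were the members, NF-kB subunits and a few standard targets and receptors, up to 4 genes per list with the largest difference past the threshold and no overlap with parent, and the 5 genes nearest to CXCL8. Members carry no p-value against parent. The replicate numbers of the labels did not pair the libraries (correlations of deviations 0.114, 0.027 and -0.0456).

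Depth was estimated from steps between low FPKM of genes with 1 transcript, with 200 bases taken off its length. Only 58.6% to 63.0% of values came within 0.1 of a whole read, so read numbers are approximate. Gene positions and shared windows are from GENCODE on GRCh37, promoters from RefSeq on GRCh38.p14, and sequences were handled in Python 3.11.15 with Biopython 1.88. Alternatives were other pseudocounts, filters, scaling, a variance prior without trend, the 4 siLINC01534 libraries as 1 group, a replicate block and leaving out each library.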

Additional observations from a re-analysis of the deposited data

Results flagged for a closer look

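A number of the named genes responded differently to the 2 siRNAs, by the test of siLINC01534-1 minus siLINC01534-2 across all genes (limma adjusted p under 0.05), which 41.8% of all tested genes passed. Among the members these were CXCL1, with a log2 difference of -0.52 (adjusted p = 0.0466), and TNFAIP3, with -0.38 (adjusted p = 0.034). Lower with siLINC01534-1 were also BCL3 (-0.33, adjusted p = 0.0374), UBE2N (-0.97, adjusted p = 0.000123), PLAU (-0.58, adjusted p = 0.00103), SOD2 (-0.15, adjusted p = 0.019), LTBR (-0.23, adjusted p = 0.0148), ZFP36 (-0.28, adjusted p = 0.00616) and HNRNPD (-0.47, adjusted p = 0.000922). Higher with siLINC01534-1 were NFKB1 (0.26, adjusted p = 0.0397), NFKB2 (0.38, adjusted p = 0.00191), IKBKB (0.55, adjusted p = 0.00254), MAP3K14 (0.66, adjusted p = 0.00332), FTH1 (0.24, adjusted p = 0.007), ADAM17 (0.17, adjusted p = 0.0237) and ATF3 (0.35, adjusted p = 0.0154). Of the genes nearest to CXCL8 in pattern, HMOX1 (0.62, adjusted p = 0.00194) and UPP1 (0.25, adjusted p = 0.038) were higher with siLINC01534-1. UBE2N was at 63.1 FPKM in both parent libraries, against 29.2 and 30.0 for siLINC01534-1 and 57.7 and 60.6 for siLINC01534-2.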

How the results depend on the processing

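The 9 detected members were above parent under each alternative that tested them. Members past the threshold for both siRNAs numbered 4 with a mean FPKM of at least 5, where 4 were tested, 5 with the 4 siLINC01534 libraries as 1 group (without CXCL1, CXCL16 and TNFAIP3) and 7 to 8 when 1 library was left out. Between the siRNAs, 1 member (TNFAIP3) passed with a pseudocount of 0.1 or 0.5 or no filter and 0 with a mean of at least 5. With each library left out the number was 0 to 2, with 0 without the first library of siLINC01534-1 or the second of siLINC01534-2. Without the second library of siLINC01534-1, CXCL3 and CXCL16 passed in place of CXCL1 and TNFAIP3. With the replicate number as a block 0 passed (CXCL1 adjusted p = 0.0604, TNFAIP3 0.0635), and as the numbers did not pair the libraries this is not read as a weaker effect. The block left 8 members past the threshold against parent and 11 other targets. For these targets 13 calls against parent became 3 as 1 group and 8 to 12 with a library left out, 8 without the second parent library, while calls over all tested genes went from 4541 to 361 and, without that library, 2219. The numbers were 6 to 8 with siLINC01534-1 and 6 to 9 with siLINC01534-2, with 6 without either siLINC01534-2 library. The CXCL8 difference was 3.799 with a pseudocount of 0.1, 3.45 with 0.5 and 3.04 to 3.21 with a library left out. Between the siRNAs it ranged from -0.33 to -0.13 with a library left out. Reversed without the first library of siLINC01534-1 were CXCL3 (-0.082, range -0.082 to 0.45 with a library left out) and NFKBIA (-0.012, range -0.012 to 0.084). The causes were not tested. Scaling factors were 1.003 to 1.008, so that alternative could change little, and all members' calls stayed in place. Depth limits CXCL2, CXCL3 and CXCL1 in parent most, at an estimated 1 to 10 reads.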
